A study of Gallus gallus with 2 samples.

Results

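The genes ITPR1, PLCB4, PLCB3 and ALDOC were followed across cell types and stages of the embryonic chick cerebellum. They were chosen by symbol as parts of metabotropic glutamate signalling and of the zebrin bands of the cerebellar cortex. Of the 4 symbols, 3 had an entry among the 30108 genes of the count table. PLCB3 had none under that symbol and is not analysed here. ITPR1 (ENSGALG00010021688) lies on chromosome 12 from 18584390 to 18735101, PLCB4 (ENSGALG00010018418) on chromosome 3 from 13652524 to 13869360, and ALDOC (ENSGALG00010029203) on chromosome 19 from 6221503 to 6225167, in RefSeq coordinates of GRCg7b. The span of PLCB4 overlaps the protein-coding gene LAMP5 and 1 long non-coding RNA, and that of ALDOC overlaps PIGS. Whether strand was used in counting is not given in the sources used here, so UMIs of these pairs may be mixed.

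In Purkinje cells, the sole output neurons of the cerebellar cortex, glutamate from parallel fibres activates group I metabotropic receptors. These act through Gq proteins on phospholipase C beta, which releases inositol trisphosphate (IP3), and IP3 opens the IP3 receptor ITPR1 on calcium stores of the endoplasmic reticulum. In the adult mouse, Purkinje cells form parasagittal bands. Cells rich in aldolase C (ALDOC, the zebrin II antigen) also hold PLCB3, and the cells between them hold PLCB4.

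The tissue was cerebellum of wild-type Gallus gallus embryos at embryonic days 6, 7, 8 and 9 (E6, E7, E8 and E9), pooled, dissociated and barcoded with the split-pool Evercode WT Mini kit. No treatment, transgene or allele is given for any group. The 2 labelled samples are sublibraries, aliquots of 1 pool of barcoded cells, and each stage filled 3 of 12 first-round wells. Nothing says that the wells held separate embryos, so a stage was taken as 1 pool and no difference below carries a test.

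Levels are summed counts of unique molecular identifiers (UMIs) of a gene, scaled to a total of 1000000 UMIs in the set of cells (CPM), with an exact 95% Poisson interval for the summed count. Log2 ratios carry the interval from the binomial split of the UMIs and the SD over the 2 sublibraries. All intervals cover counting error only, and intervals that overlap do not show that levels are equal. A difference in level within a class cannot be told apart from a change in the kinds of cells the class holds.

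The table held 15190 cells with 615 to 256122 UMIs each. Median depths from E6 to E9 were 3025.5, 6047, 3310 and 3172 UMIs, and E7 supplied 7648 of the cells. The 2 sublibraries shared 896 cell barcodes. Classes were gated on marker UMIs per cell, and the thresholds were set after looking at the data, so a gate is a range of cells and not a type. The Purkinje gate took 3057 cells (484, 2178, 252 and 143 from E6 to E9). Of these, 1060 had the minimum of 2 of 5 further markers and 413 lay within 1000 CPM above the FOXP2 limit, while 689 cells lay within 1000 CPM below it. RORA, a Purkinje transcription factor outside the gate, stood at 3597 CPM inside it and at 876 CPM in the 4603 other gated cells. The median Purkinje-gated cell had 308 CPM of the summed granule lineage markers and 112 CPM of the radial progenitor markers, and 0 for each of the other 11 marker lists. The other gated cells had medians of 527 and 1318 CPM for the granule and radial lists. For the other 11 lists their median was also 0, except the glutamatergic nuclear list (178 CPM), so these zeros do not measure purity. Summed over Purkinje-gated cells, the endothelium, GABAergic interneuron and glutamatergic nuclear lists had 85.1, 77.3 and 60.0 CPM. In the other gated cells these sums were 519, 371 and 602 CPM. No doublet caller was run, and doublets must be taken as present. The 1367 cells that passed several gates, with a median of 13957 UMIs, were left out of every class.

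Over all stages, ITPR1 was not much higher in Purkinje-gated cells than elsewhere. The level was 153 CPM (148 to 159, 2976 UMIs) against 129 CPM in the other gated cells, a log2 ratio of 0.25 ± 0.132 (SD over 2 sublibraries, 0.15 and 0.34). Taking classes from Leiden clusters in place of gates gave 0.66, and scaling by the median of ratios gave 0.51. The 13527 genes with at least 100 UMIs had a median log2 ratio of -0.19, with 5 CPM added to each level. The ITPR1 level was highest in mural-gated cells, which take in the contractile cells of vessel walls and collagen-expressing mesenchyme, at 244 CPM (214 to 277, 263 and 223 in the sublibraries). Below the Purkinje-gated cells came radial-gated progenitors at 138 CPM (133 to 143), granule-gated cells at 119 CPM (108 to 131), PAX2-gated interneuron precursors at 109 CPM (96.7 to 124) and MEIS2-gated glutamatergic nuclear neurons at 96.2 CPM (86.1 to 107). The intervals of the granule-gated and PAX2-gated cells overlapped, as did those of the PAX2-gated and MEIS2-gated cells. Endothelium-gated cells held 74.5 CPM (60.8 to 90.4), 48 microglia-gated cells 84.8 CPM (45.2 to 145) and 39 erythroid-gated cells 65.7 CPM from 4 UMIs (17.9 to 168), and these intervals overlapped each other. This order is pooled over stages, and E7 supplied 2178 of the Purkinje-gated cells. By stage, mural-gated cells had 236 CPM at E7, 288 CPM (225 to 362) at E8 and 200 CPM (150 to 260) at E9. They lay above Purkinje-gated cells at E7, overlapped them at E8 and lay below them at E9.

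**Figure D1:**
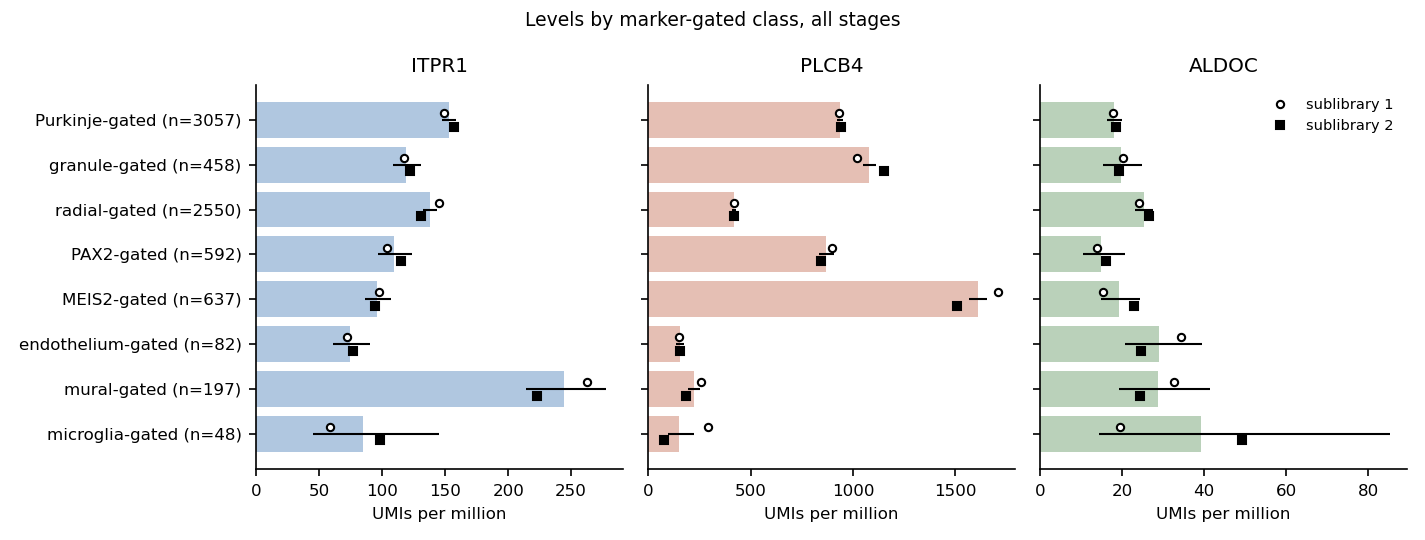
Levels of ITPR1, PLCB4 and ALDOC in CPM by marker-gated class, all stages summed; bars give the summed level, lines its 95% Poisson interval, open circles sublibrary 1 and filled squares sublibrary 2, and n is the number of cells. Over all stages, mural-gated cells lead for ITPR1 (244 CPM) and MEIS2-gated cells for PLCB4 (1609 CPM), while Purkinje-gated cells hold less ALDOC (18.05 CPM) than radial-gated cells (25.2 CPM).

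The stages of the Purkinje-gated cells differed far more than the classes did. ITPR1 stood at 58.0 CPM (47.2 to 70.5, 100 UMIs) in E6 cells, 139 CPM (134 to 145, 2202 UMIs) one day later, 245 CPM (217 to 275, 286 UMIs) in E8 cells and 509 CPM (460 to 562, 388 UMIs) in E9 cells. The 4 intervals did not overlap, and the measured E9 level was 8.78 times that of E6, a log2 ratio of 3.13 (2.81 to 3.47; sublibraries 2.71 and 3.52, SD 0.574). Of 3736 genes with at least 100 UMIs in that comparison, 8.59% were at least 2-fold higher at E9. The wells kept the order of the stages. The 3 E6 wells lay between 56.6 and 59.9 CPM, the E7 wells between 138 and 142 CPM, the E8 wells at 200, 219 and 303 CPM, and the E9 wells at 408, 559 and 573 CPM. The gate took 19.5%, 28.5%, 10.2% and 5.55% of the cells of the successive stages, and the part of this in the levels was not tested. At E6 the level was no higher than in endothelium-gated cells pooled over stages (74.5 CPM), and the intervals overlapped. Endothelium-gated cells at E6 held more, with 137 CPM from 14 UMIs, and their interval lay wholly above. These cells are no measured background. Whether the E6 Purkinje-gated level exceeds background was not tested, and it is not read as expression above it. Ratios to E6 are therefore ratios of measured levels and not exact folds of expression. The measured E7 level was 2.40 times that of E6, where 5.82% of 9613 genes were at least 2-fold higher and 1.41% at least 2-fold lower.

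Shares of cells gave the same order. After drawing 1000 UMIs from each cell, 5.99% of Purkinje-gated cells (4.05 to 8.49, 29 of 484) had an ITPR1 UMI at E6, and the later stages followed with 11.9%, 19.8% and 33.6% (25.9 to 41.9, 48 of 143). Without thinning the shares were 15.1%, 44.9%, 48.4% and 74.1%, at median depths of 3228, 5844.5, 4155 and 4825 UMIs. In endothelium-gated cells pooled over stages, whose median depth was 11713.5 UMIs, the thinned share was 7.41% (2.77 to 15.4). The E6 share was at that level, the E8 share was higher with intervals that overlapped slightly, and the E9 interval lay wholly above.

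Elsewhere the stages lay closer together. ITPR1 in radial-gated cells was 128 CPM at E6 and 167 CPM at E9, a log2 ratio of 0.38 ± 0.139, where 6.58% of 5240 genes were at least 2-fold higher and 3.65% at least 2-fold lower. At E6 these progenitors held more ITPR1 than Purkinje-gated cells did. In PAX2-gated cells the levels were 67.7 CPM from 10 UMIs at E6 and 146 CPM at E9, a log2 ratio of 1.11 (0.16 to 2.23). MEIS2-gated cells had 60.4, 107, 94.0 and 195 CPM from E6 to E9, with E9 sublibraries of 244 and 141 CPM. At E9 the Purkinje-gated level was thus more than 2 times that of each of these classes, whereas at E6 its interval overlapped those of the PAX2-gated and MEIS2-gated cells.

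**Figure D2:**
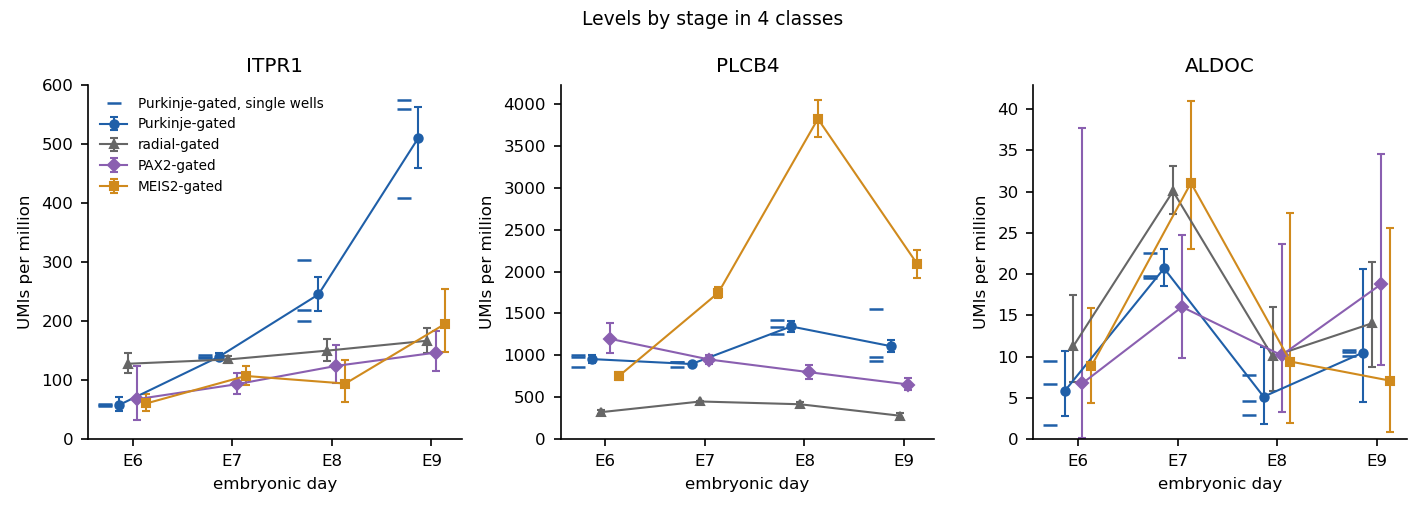
Levels in CPM at E6 to E9 for ITPR1, PLCB4 and ALDOC in Purkinje-, radial-, PAX2- and MEIS2-gated cells, with 95% Poisson intervals; short horizontal marks are the single first-round wells of Purkinje-gated cells. ITPR1 goes from 58.0 to 509 CPM in Purkinje-gated cells, PLCB4 reaches 3823 CPM in MEIS2-gated cells at E8, and ALDOC is highest at E7 in 3 of the 4 classes.

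Leiden clusters, made without the 3 genes and the pathway and zebrin lists, were compared between stages as well. Cluster 16, whose leading genes include CDH6 and MEF2C and of whose cells 65.7% were Purkinje-gated, had 428 CPM of ITPR1 at E7 (301 cells), 502 CPM at E8 (84 cells) and 913 CPM (811 to 1026, 79 cells) at E9. Cluster 18, led among others by NR2F2, had 179, 251 and 598 CPM at these stages. Cluster 13, led among others by FOXP4, had 133, 214 and 485 CPM. Cluster 9, with PCDH10 among its leading genes and 644 of 658 cells from E7, stood at 76.6 CPM. At E7 the clusters with Purkinje markers therefore spanned 76.6 to 428 CPM of ITPR1 with no overlap between the ends. Cluster 21, which held E8 and E9 cells, had 305 and 439 CPM. In cluster 12, also counted as Purkinje, the levels of 98.3, 123 and 145 CPM from E7 to E9 had overlapping intervals. Outside the Purkinje clusters, cluster 19 had 116 CPM at E7 and 236 CPM at E9, and the unnamed cluster 0 had 135 and 308 CPM. Higher E9 levels were thus also found in clusters not counted as Purkinje. Of their cells, 3.51% in cluster 19 and 5.51% in cluster 0 were Purkinje-gated. In cluster 0, with a median depth of 15074 UMIs, these were 6 of the 62 E9 cells. The part of Purkinje-gated cells and doublets in these levels was not tested. Of all Purkinje-gated cells, 2299 (75.2%) fell in Purkinje clusters. These were 449 of 484 cells at E6, 1517 of 2178 at E7, 213 of 252 at E8 and 120 of 143 at E9. At E7, 243 others fell in the unnamed cluster 8, and 161 and 158 in clusters 10 and 22, counted as granule lineage. Purkinje-gated cells within Purkinje clusters had 56.4, 159, 266 and 583 CPM of ITPR1 from E6 to E9. The Purkinje clusters held 743, 2189, 537 and 367 cells at these stages, so most of their E8 and E9 cells were not Purkinje-gated. All cells of these clusters together had 56.7, 157, 290 and 543 CPM of ITPR1. Nearly all E6 Purkinje-gated cells (92.4%) fell in cluster 4, which held 724 E6 cells and almost no others. E6 and the later stages were therefore not compared within a cluster.

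**Figure D3:**
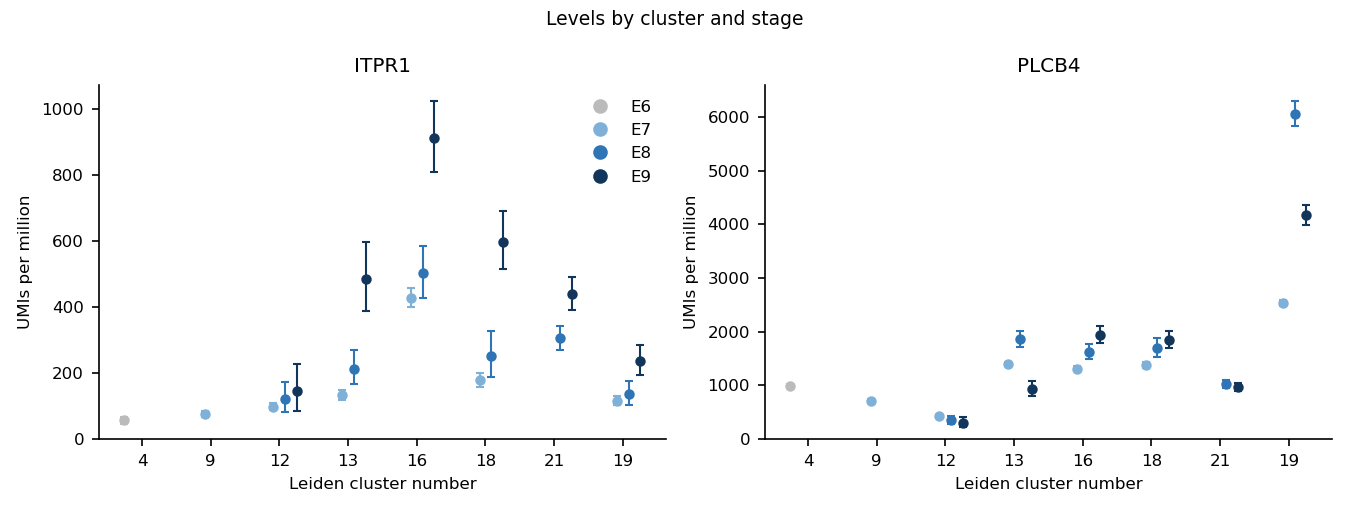
ITPR1 and PLCB4 in CPM by Leiden cluster and stage, for stages with at least 20 cells, with 95% Poisson intervals. Clusters 4, 9, 12, 13, 16, 18 and 21 were counted as Purkinje from markers and cluster 19 carries MEIS2-type nuclear neuron markers; ITPR1 is highest in cluster 16 at E9 (913 CPM) and PLCB4 in cluster 19 at E8 (6066 CPM).

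PLCB4, the phospholipase C beta isoform of the zebrin-negative bands in the mouse, was highest outside the Purkinje gate. MEIS2-gated cells, which include the glutamatergic projection neurons of the cerebellar nuclei, held 1609 CPM (1567 to 1652; sublibraries 1706 and 1510). All the other gated cells together held 696 CPM, a 2.31-fold difference and a log2 ratio of 1.21 ± 0.121, where 2.14% of 13527 genes were at least 2-fold higher and 5.89% at least 2-fold lower. Granule-gated cells had 1080 CPM (1047 to 1114), Purkinje-gated cells 937 CPM (923 to 950) and PAX2-gated cells 869 CPM (832 to 906), and these 3 intervals did not overlap. That order also turned with stage. Granule-gated cells lay above Purkinje-gated cells at E7 (1241 against 896 CPM) but below them at E8 (407 against 1345 CPM) and E9 (842 against 1110 CPM), and MEIS2-gated cells lay below them at E6 (752 against 955 CPM). The E9 sublibraries overlapped in range, at 576 and 1070 CPM in granule-gated and 821 and 1349 CPM in Purkinje-gated cells. PAX2-gated cells lay above Purkinje-gated cells at E6, with 1197 CPM (1028 to 1387, 52 cells). Their intervals overlapped at E7, and PAX2-gated cells lay below at E8 (799 CPM) and E9 (652 CPM). Radial-gated cells had 420 CPM, mural-gated cells 222 CPM, and endothelium-gated cells 153 CPM. The erythroid-gated value of 230 CPM rested on 14 UMIs and overlapped that of the mural-gated cells. PLCB4 in Purkinje-gated cells was 2.23-fold above radial-gated cells, where 5.25% of 12439 genes were at least 2-fold higher. Against all other gated cells its log2 ratio was 0.53 ± 0.0609, with 2.97% of genes at least 2-fold higher and 11.9% at least 2-fold lower. Scaled by the median of ratios, these shares were 5.06% and 8.45%. That ratio was 0.83 without the MEIS2-gated cells, 0.38 against all cells outside the gate and 1.39 in cells without a UMI of the 9 W-linked genes matched, the W being the female chromosome of birds. This is no split by sex, since shallow cells can lack such a UMI. Cells with one were 88.3% at E7 and 57.8% at E8, so the mix of stages changed as well. Purkinje-gated cells without and with one had 864 and 981 CPM at E6, 977 and 890 CPM at E7, 1434 and 1317 CPM at E8, and 1441 and 1010 CPM at E9. After thinning, 49.4% of Purkinje-gated cells (47.6 to 51.2) had a PLCB4 UMI. PAX2-gated cells had 51.1% (47.0 to 55.2) and MEIS2-gated cells 50.7% (46.7 to 54.7), each overlapping the Purkinje-gated interval. Granule-gated cells had 35.6% and endothelium-gated cells 11.1% (5.21 to 20.05). At E7 the granule-gated share was 48.1% (41.5 to 54.7), beside 48.3% (46.2 to 50.5) in Purkinje-gated cells. Their median depths at E7 were 8864 and 5844.5 UMIs. The E7 difference in level between these classes was thus not seen in the shares.

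With stage, PLCB4 in Purkinje-gated cells took no such course as ITPR1. From E6 to E9 the levels were 955 CPM (909 to 1002), 896 CPM (881 to 911), 1345 CPM (1279 to 1413) and 1110 CPM (1037 to 1188). E9 exceeded E6 by a log2 ratio of 0.22, but the sublibraries gave -0.26 and 0.54 (SD 0.562), so its direction was not settled. The 3 E9 wells stood at 935, 974 and 1550 CPM, and 1 well thus made most of the difference, while the E8 wells (1252 to 1425 CPM) lay above all E6 wells (862 to 1007 CPM). After thinning, the shares of Purkinje-gated cells with a PLCB4 UMI were 53.7% (49.2 to 58.2) at E6 and 48.3% at E7. They were 50.4% (44.1 to 56.7) at E8 and 49.0% at E9. The E8 share was thus no higher than the E6 share. In MEIS2-gated cells the levels from E6 to E9 were 752, 1748, 3823 (3612 to 4044, 54 cells) and 2087 CPM (43 cells). The E8 sublibraries differed widely, at 4643 and 2818 CPM, and both lay above the 2 E9 sublibraries at 2144 and 2024 CPM. PAX2-gated cells had a lower level at each later stage, from 1197 CPM at E6 to 652 CPM at E9, a log2 ratio of -0.88 ± 0.0308. In that pair of stages 15.1% of 1388 genes were at least 2-fold higher and 6.56% at least 2-fold lower, a limit PLCB4 did not reach. LAMP5, which overlaps PLCB4, had 24.9 CPM in MEIS2-gated cells and 13.1 CPM in Purkinje-gated cells. These values do not show how many UMIs of LAMP5 were counted as PLCB4. The overlapping long non-coding RNA was not examined.

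Cluster 19 carried the high PLCB4 of the nuclear neurons. Its 399 cells had 3112 CPM (3057 to 3167), with 2529 CPM at E7, 6066 CPM at E8 and 4168 CPM at E9. Cluster 14, led by LHX9, MEIS2 and LHX2 and made of E6 and E7 cells, had 671 CPM, so MEIS2-gated cells held both high and low levels. Among clusters with Purkinje markers, numbers 13, 16 and 18 held 1421, 1430 and 1473 CPM, number 9 held 715 CPM and number 12 held 419 CPM. Clusters 12 and 21 rest on 2 markers past the limit, the minimum for the name. PLCB4 at E7 thus differed more than 3-fold between cells counted as Purkinje, from 428 CPM in cluster 12 to 1399 CPM in cluster 13. In clusters 16 and 18 the E9 levels (1942 and 1852 CPM) lay above the E7 levels (1313 and 1373 CPM), whereas in cluster 13 the E9 level (936 CPM) lay below the E7 level. Among clusters counted as granule lineage, numbers 3 and 15 held 237 and 214 CPM. Number 10 held 547 CPM, and numbers 22 and 11 held 880 and 1002 CPM. At E9, clusters 3 and 15 (311 and 294 cells) had 199 and 201 CPM, far below the 842 CPM of the 148 granule-gated cells.

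Both genes varied with genes that mark Purkinje subsets. Purkinje-gated cells with at least 2 UMIs of NR2F2, an orphan nuclear receptor, had 189 CPM of ITPR1 at E7 (331 cells) against 128 CPM in the others, a log2 ratio of 0.57 ± 0.129. They had 340 against 231 CPM at E8 (30 and 222 cells), with overlapping intervals, and 726 against 429 CPM at E9 (36 and 107 cells), with intervals apart. PLCB4 was also higher in NR2F2-positive cells, at 1257 against 811 CPM at E7 (log2 ratio 0.63 ± 0.140), 1869 against 1269 CPM at E8 and 1807 against 853 CPM at E9. At E7, 97.7% of 9375 genes had a lower ratio than ITPR1 and 98.2% a lower ratio than PLCB4, though neither reached 2-fold. Over the 8 pairs of subset gene and stage group, between 0.0213% and 3.67% of genes were at least 2-fold different in a given direction. NR2F2-positive cells were deeper at E7, with a median of 7127 against 5698 UMIs, and the part of depth in these differences was not tested.

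Cells with the cadherin CDH6 had 160 against 129 CPM of ITPR1 and 1084 against 802 CPM of PLCB4 at E7. At E6, where the NR2F2 split left too few positive cells, CDH6-positive cells had less PLCB4 (808 against 1024 CPM), the reverse of E7. Cells with the protocadherin PCDH10 had less ITPR1, with 100 against 149 CPM at E7 (log2 ratio -0.57 ± 0.122), 172 against 271 CPM at E8 and 338 against 542 CPM at E9. These intervals were apart at each of the 3 stages. PLCB4 in PCDH10-positive cells was 756 against 930 CPM at E7, and its intervals overlapped at E8 and at E9. For FOXP1, a forkhead factor, the 2 genes went apart at E7. FOXP1-positive cells had 160 against 131 CPM of ITPR1 and 741 against 958 CPM of PLCB4 (log2 ratios 0.29 ± 0.102 and -0.37 ± 0.0836). At E8 the 20 FOXP1-positive cells had 147 against 257 CPM of ITPR1, with intervals that overlapped slightly, and 689 against 1426 CPM of PLCB4. ALDOC did not separate by any of the 4 genes at E7. Its log2 ratios lay between -0.04 for CDH6 and 0.22 for PCDH10, and every interval spanned 0. Positive cells were deeper at E7 in these splits as well. Median depths were 6973 against 5610 UMIs for CDH6, 7539 against 5676 for PCDH10 and 7750 against 5588.5 for FOXP1. The part of depth in these differences was not tested.

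**Figure D4:**
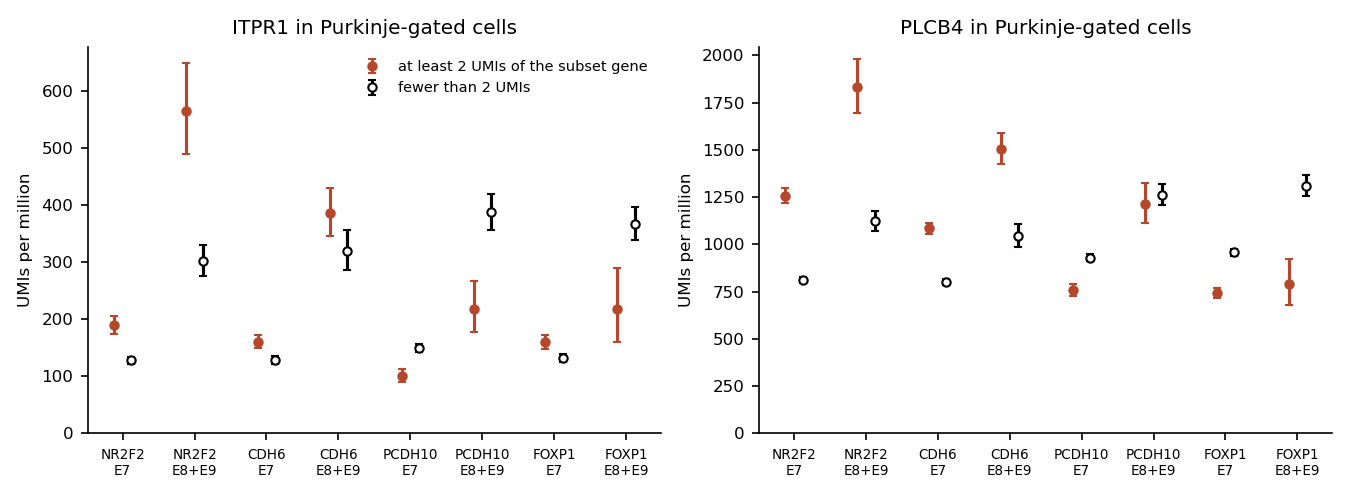
ITPR1 and PLCB4 in CPM in Purkinje-gated cells with at least 2 UMIs (filled) or fewer than 2 UMIs (open) of NR2F2, CDH6, PCDH10 or FOXP1, at E7 and at E8 and E9 together, with 95% Poisson intervals. ITPR1 is higher in NR2F2-positive cells (564 against 301 CPM at E8 and E9, where E9 cells were a larger share of the positive cells). It is lower in PCDH10-positive cells (219 against 387 CPM at E8 and E9, where E9 cells were a smaller share of the positive cells).

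ALDOC, the glycolytic enzyme recognised as zebrin II, was scarce, with 2156 UMIs in all cells and 351 in Purkinje-gated cells. Purkinje-gated cells held 18.05 CPM (16.2 to 20.04) against 23.4 CPM in the other gated cells, a log2 ratio of -0.37 ± 0.0458. Radial-gated cells had 25.2 CPM (23.0 to 27.6), endothelium-gated cells 28.9 CPM (20.7 to 39.4) and mural-gated cells 28.7 CPM (19.1 to 41.5), and these 3 intervals overlapped. Granule-gated, MEIS2-gated and PAX2-gated cells had 19.6, 19.1 and 14.9 CPM, each overlapping the Purkinje-gated interval. Microglia-gated cells had 39.2 CPM from 6 UMIs, and erythroid-gated cells had 0 of 60910 UMIs, which allows up to 49.3 CPM by the limit of 3 counts and 60.6 CPM by the exact interval. The Purkinje-gated level was no higher than in endothelium-gated or mural-gated cells. These cells are no measured background, since mural-gated cells at E7 had 50.6 CPM (31.3 to 77.3) against 25.4 CPM (24.2 to 26.6) over all cells. Whether the Purkinje-gated level exceeds background was not tested, and it is not read as expression above it.

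ALDOC was highest at E7 in several classes at once. Purkinje-gated cells had 5.80, 20.7, 5.14 and 10.5 CPM from E6 to E9, which rested on 10, 327, 6 and 8 UMIs. The E7 wells lay between 19.5 and 22.6 CPM, above every well of the other stages (1.68 to 10.7 CPM). Radial-gated cells had 11.3, 30.1, 10.0 and 14.0 CPM and MEIS2-gated cells 8.86, 31.1, 9.40 and 7.09 CPM from E6 to E9. PAX2-gated cells, with 20 UMIs at E7 and 10 at E9, did not share this order. Over all cells the levels were 8.65, 25.4, 9.45 and 15.8 CPM. E7 was 2.93-fold above E6 over all cells, where 1.94% of 14572 genes were at least 2-fold higher and 0.769% at least 2-fold lower. PIGS, which overlaps ALDOC, was likewise highest at E7, with 2.81, 7.20, 1.99 and 4.26 CPM over all cells. E7 was the deepest stage. Shares of genes shorter than 10 kb, among them ALDOC with 3665 bp, were taken over UMIs of genes with a RefSeq length (83.5% of all UMIs). These shares were 6.41% at E7 against 4.75% at E6, 3.98% at E8 and 4.96% at E9. In Purkinje-gated cells they were 4.06%, 5.78%, 2.66% and 3.69% from E6 to E9. Cells with a UMI of the 9 W-linked genes matched made up 64.7%, 88.3%, 57.8% and 58.7% of all cells from E6 to E9, also highest at E7. The part of depth, of the short-gene share and of this W-linked share in the ALDOC levels was not tested.

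ALDOC UMIs were too few to ask whether ALDOC and PLCB4 stood in different Purkinje-gated cells, since after thinning 50 of 3057 cells had one, 46 of them from E7. Pooled over stages, ITPR1 was found in 14.5% (12.8 to 16.4) of cells with a PLCB4 UMI and in 10.8% (9.29 to 12.4) of cells without one. These shares were 5.77% and 6.25% at E6, 13.7% and 10.2% at E7, and 25.2% and 14.4% at E8. At E9 they were 40.0% (28 of 70 cells) and 27.4% (20 of 73). The intervals overlapped at each stage.

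Related isoforms were compared across the same classes. ITPR2, a second IP3 receptor, stood at 17.3 CPM in Purkinje-gated cells against 875 CPM in microglia-gated, 494 CPM in mural-gated and 85.3 CPM in radial-gated cells. ITPR3, the third, was at 1.65 CPM in Purkinje-gated cells and at 302 CPM (417 UMIs) in endothelium-gated cells. PLCB1 stood at 1609 CPM in radial-gated cells and 240 CPM in Purkinje-gated cells, a log2 ratio of -2.75 ± 0.0253, where 13% of genes were at least 2-fold lower. PLCB1 was nevertheless higher at each later stage in Purkinje-gated cells, at 100, 234, 380 and 467 CPM, and at 819 and 2873 CPM in radial-gated cells at E6 and E9. PLCB2 had 40 UMIs in Purkinje-gated cells and 117 CPM in microglia-gated cells. ALDOA had no entry under that symbol.

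Around these genes, the list of 29 genes of the metabotropic glutamate pathway had 28 entries, of which 27 had at least 100 UMIs. In Purkinje-gated cells 2 of the 27 were at least 2-fold higher than in other gated cells and 6 at least 2-fold lower, on ratios with a prior of 5 CPM, beside 2.97% and 11.9% of all genes. The list's median log2 ratio was -0.10, beside -0.19 over all genes. Among the higher genes was CAMK2A, a calcium/calmodulin-dependent kinase, at 58.8 against 17.8 CPM. The lower genes were PLCB1, ITPR2, ITPR3, PRKCA, CA8 and PCP4. CA8, a protein that binds ITPR1 in mouse Purkinje cells, stood at 3.80 CPM against 23.2 CPM in radial-gated cells.

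GRM5, a group I metabotropic receptor, had 316 CPM in Purkinje-gated cells against 175 CPM in other gated cells. In MEIS2-gated cells GRM5 (529 CPM) and PRKCB (142 CPM), a protein kinase C, were 2.55-fold and 2.27-fold above all other gated cells. GNAQ, the Gq subunit that couples group I receptors to phospholipase C beta, was at 201 against 138 CPM. HOMER3, a postsynaptic scaffold, was at 49.0 against 56.7 CPM. CALB1, the calcium buffer calbindin, had 4 UMIs in 3057 Purkinje-gated cells.

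**Figure D5:**
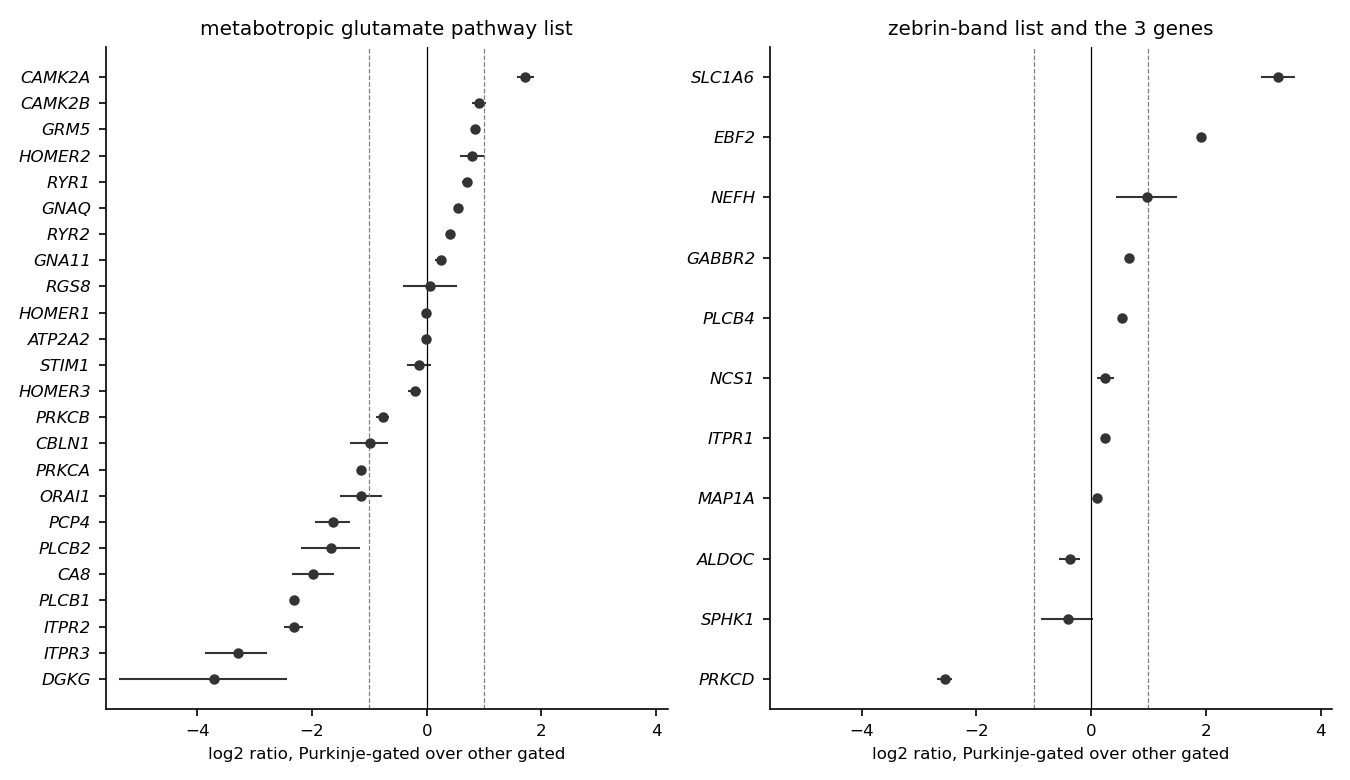
Log2 ratios of summed CPM, Purkinje-gated over other gated cells, for reported genes of the metabotropic glutamate pathway list and of the zebrin-band list with ITPR1, PLCB4 and ALDOC, among those with at least 100 UMIs; lines are 95% counting intervals and dashed lines mark 2-fold. SLC1A6 (3.26) and EBF2 (1.92) lie furthest to the right and DGKG (-3.71) furthest to the left; these ratios carry no prior, so genes at a few CPM can pass the dashed lines without being counted as 2-fold.

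From E6 to E9, 13 genes of the pathway list had enough UMIs in Purkinje-gated cells. At E9, 5 were at least 2-fold higher (PLCB1, PRKCB and RYR2 among them) and 1 at least 2-fold lower (GRM5), beside 8.59% and 9.4% of all genes. The list median was 0.64 and that of all genes -0.21. RYR2, a ryanodine receptor of the same calcium stores, had 159, 203, 519 and 667 CPM from E6 to E9. GRM5 had 306, 329, 259 and 146 CPM, and its E9 level lay below E6 by log2 ratios of -0.38 and -1.97 in the sublibraries. At E7, 4 of 19 tested genes of the list (PLCB1, HOMER2 and CAMK2A among them) were at least 2-fold above E6 and none was 2-fold lower, beside 5.82% and 1.41% of all genes. PRKCA, PCP4, PRKCB, RYR2 and HOMER2 are named because they were counted, after their values were seen.

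Of the 12 zebrin-band genes known from the mouse, 11 had an entry and 8 at least 100 UMIs. In Purkinje-gated cells 2 were at least 2-fold higher and 1 at least 2-fold lower, beside 2.97% and 11.9% of all genes. The list median was 0.27 and that of all genes -0.19. SLC1A6, the Purkinje glutamate transporter EAAT4, stood at 34.7 CPM against 3.62 CPM, a 9.58-fold difference. Its UMIs in Purkinje-gated cells from E6 to E9 numbered 1, 537, 54 and 82, or 0.580, 34.0, 46.2 and 108 CPM. EBF2, a transcription factor of zebrin-negative cells, stood at 3153 against 832 CPM, and PRKCD, a protein kinase C, at 29.8 against 175 CPM. GABBR2, a GABA-B receptor subunit, had 164, 574, 1393 and 1661 CPM from E6 to E9. NEFH and SPHK1 were at 3.599 and 3.19 CPM, and KCTD12, for which the first of 2 entries was read, had 5 UMIs in Purkinje-gated cells.

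Across 21 combinations of class and stage with at least 50 cells, the genes most like ITPR1 in log2 level were PDE3A (Pearson r 0.90), GALNT18 (0.90), PRKG1 (0.85), CDH13 (0.84) and CORIN (0.83), among 10924 genes with at least 500 UMIs. Those most like PLCB4 were CAMTA1 (0.93), OTOA (0.89), KIAA1841, DEPTOR and PLPPR4 (each 0.88). Those most like ALDOC were SPIN1L (0.90), ENSGALG00010011857, HNRNPKL, SMAD7B and DENND4C (each 0.88). ITPR1 and PLCB4 had an r of -0.34, ITPR1 and ALDOC 0.17, and PLCB4 and ALDOC -0.27. These combinations share libraries and stage depths, and the values are a description.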

How the data were processed

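Polyadenylated RNA of 2 sublibraries was deposited as 1 table of raw UMI counts per cell and gene, with a cell table that gives stage and well. The counts were used as deposited; the matrix sums equalled the totals of the cell table in 15190 cells. The build is GRCg7b, and Cell Ranger and Seurat are named with no role, per the submitters' processing notes; which aligner and counting rules were used is not given in the sources used here. Members and lists were chosen with earlier results of these data known.

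UMIs were summed over cells and divided by all UMIs of those cells, times 1000000. Purkinje-gated cells had FOXP2 at 3000 CPM or more and at least 5 UMIs, and at least 2 of SKOR2, FOXP4, ESRRB, LHX1 and LHX5. Radial-gated cells had 3 of SLC1A3, NOTCH1, FABP7, HES5, SOX2 and SOX9, and granule-gated cells 2 of BARHL1, PAX6, NEUROD1 and NEUROD2. PAX2-gated cells had PAX2 at 1500 CPM or more and at least 3 UMIs. MEIS2-gated cells had MEIS2 at 500 CPM or more and at least 3 UMIs, with 1 of LHX9, LHX2, TBR1, SLC17A6 and LMX1A. Endothelium needed 3 of FLT1, CDH5, KDR, EGFL7, TEK and CLDN5, mural cells 2 UMIs of PDGFRB and 1 of COL1A1, COL1A2, RGS5, DCN and COL3A1, microglia 2 UMIs of CSF1R and 1 of PTPRC, SPI1 and CTSS, and erythroid cells 3 of HBA1, HBAD, HBBA and HBZ. A cell passing several gates was left out, and 6163 cells passed none.

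A gene counted as 2-fold different had at least 100 UMIs over both sets and a ratio of at least 2 with a prior of 5 CPM. Named genes were the members, their paralogs, 10 fixed genes and, of each list, the 4 largest and 2 smallest ratios; some of these are not reported here, though the list counts include them. Clusters came from scanpy 1.11.5 and leidenalg 0.10.2 (the 2000 most variable genes without members and lists, 30 components, 15 neighbours, resolution 1) and counted as Purkinje with 2 markers at least 2-fold up. Shares were taken after drawing 1000 UMIs per cell. The scripts (Python 3.11.15) were tested on simulated data.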

Additional observations from a re-analysis of the deposited data

How the results depend on the processing

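No paired analysis was possible because the labels give 1 group and no test was made. Leaving out either sublibrary gave log2 ratios of Purkinje-gated over other gated cells of 0.15 to 0.34 for ITPR1, 0.49 to 0.58 for PLCB4 and -0.40 to -0.34 for ALDOC. For E9 over E6 the ranges were 2.71 to 3.52 for ITPR1, -0.26 to 0.54 for PLCB4 and -0.16 to 2.44 for ALDOC, whose main value of 0.86 rests on 8 and 10 UMIs. The list counts stayed at 2 and 2.

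ITPR1 at E9 over E6, the one ratio past 2-fold with alternatives, kept its sign in all settings run. PLCB4 and ALDOC at E9 over E6 did not without sublibrary 2, and ALDOC was also negative under a stricter gate (-0.11). Classes from Leiden clusters gave Purkinje over other ratios of 0.66, 0.60 and -0.44 for ITPR1, PLCB4 and ALDOC. Scaling by the median of ratios gave 0.51, 0.80 and -0.11. It takes off a median log2 ratio (-0.27, and -0.22 for E9 over E6) and so raises each ratio. That median is taken without a prior over genes with at least 100 UMIs and a UMI in both sets. It is not the median with a prior given above. The same scaling gave 5 pathway genes at least 2-fold higher in place of 2, while the share of all genes went from 2.97% to 5.06%. The mean of per-cell CPM gave 0.75 for PLCB4, a stricter gate -0.47 for ALDOC, and all cells outside the gate 0.38 for PLCB4 and -0.29 for ALDOC.

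Settings chosen after seeing the data were Purkinje-gated cells within Purkinje clusters (0.44, 0.72 and -0.50 for ITPR1, PLCB4 and ALDOC), other cells without MEIS2-gated cells (0.83 for PLCB4), and cells without a W-linked UMI (0.54, 1.39 and -0.62, and 3.93 for ITPR1 at E9 over E6). The cause of these moves was not tested. PLCB3 gave no value in any setting. Depth limits ALDOC, with 6 to 10 UMIs in Purkinje-gated cells at E6, E8 and E9.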
